A study of Mus musculus with 27 samples.

Results

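The mouse Klk1 kallikrein cluster was examined in the lungs of 9 inbred strains. Its 10 genes were Klk1, Klk1b22, Klk1b26, Klk1b27, Klk1b1, Klk1b4, Klk1b8, Klk1b9, Klk1b11 and Klk1b21, and the array table held 1 row for each of them among 21225 rows. They were picked with the strain levels of these same arrays known, Klk1b22 above all, so every strain level and strain count of theirs is given as a description, with no p-value. The arrays measured RNA of the whole right lung of 11-week-old female mice, 3 mice per strain, on 27 Mouse Gene 1.0 ST arrays, which carry probes along the exons of each gene. Each strain is a line of mice that share nearly all of their genome, so that mice within a strain carry the same alleles. The labels also class each strain by the severity and by the frequency of its spontaneous pulmonary adenomas. Both were increased in A/J, C57BL/6J and DBA/2J and both decreased in KK/HlJ and MRL/MpJ, while C57L/J, C3H/HeJ, 129S1/SvlmJ and BALB/cJ combined increased severity with decreased frequency.

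Glandular kallikreins are secreted serine proteases of the trypsin type, made as inactive precursors. Klk1, the tissue kallikrein, cuts kininogens to release kinins, short peptides that widen vessels and make them leak through the bradykinin receptors. In the mouse the gene was duplicated many times on chromosome 7, and the copies, named Klk1b, are best known from the submandibular salivary gland, where several of them process or bind epidermal growth factor, nerve growth factor and renin and where androgens and thyroid hormone raise them. In the lung, kinins are known for their action on airway and vascular smooth muscle.

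The 10 genes lie within 279 kb of chromosome 7 on the mouse assembly GRCm38.p6, all on the forward strand, and the 250 bases before each start come from RefSeq for that assembly, whose sequence is that of C57BL/6J. All 10 genes had an entry. Klk1b22, for which the strains differed most, starts at position 44112673. Its upstream sequence is shown with those of Klk1b9, the closest to it in these letters, of Klk1b27, the other gene whose highest means were in the same strains, and of Klk1, the farthest from it. Capitals mark TTTAAA, a variant of the TATA box letters, wherever it occurs.
Klk1b22: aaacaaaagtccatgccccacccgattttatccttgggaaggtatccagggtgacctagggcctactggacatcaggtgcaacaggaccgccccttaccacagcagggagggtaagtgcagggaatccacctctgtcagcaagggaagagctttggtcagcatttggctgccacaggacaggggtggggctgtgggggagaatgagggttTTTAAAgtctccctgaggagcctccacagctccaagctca
Klk1b9: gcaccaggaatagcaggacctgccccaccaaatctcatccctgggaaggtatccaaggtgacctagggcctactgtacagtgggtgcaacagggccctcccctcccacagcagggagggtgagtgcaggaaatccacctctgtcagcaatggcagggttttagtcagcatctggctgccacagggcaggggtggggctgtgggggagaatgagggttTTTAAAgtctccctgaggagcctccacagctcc
Klk1b27: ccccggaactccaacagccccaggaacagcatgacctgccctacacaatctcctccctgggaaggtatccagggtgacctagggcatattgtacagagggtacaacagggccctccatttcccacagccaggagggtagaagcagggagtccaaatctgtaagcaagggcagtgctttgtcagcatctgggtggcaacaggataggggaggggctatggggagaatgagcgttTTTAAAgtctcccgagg
Klk1: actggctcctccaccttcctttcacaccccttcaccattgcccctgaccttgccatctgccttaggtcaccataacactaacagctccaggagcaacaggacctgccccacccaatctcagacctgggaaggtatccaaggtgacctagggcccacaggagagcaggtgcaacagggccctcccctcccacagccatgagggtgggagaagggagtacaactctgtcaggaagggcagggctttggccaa

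These stretches occupy chr7:44112423-44112672 for Klk1b22, chr7:43975811-43976060 for Klk1b9, chr7:44052040-44052289 for Klk1b27 and chr7:44225110-44225359 for Klk1. Identity to the Klk1b22 stretch, over the aligned bases, was 87.2% for Klk1b9 over 243 bases, 80.4% for Klk1b27 over 225 bases and 76.9% for Klk1 over 160 bases. Every other one of the 10 lay between these last and first values. TTTAAA, which reads the same on both strands, was found in 8 of the 10, 17 to 48 bases before the start, and in Klk1b22 it lay 40 bases before it. Klk1 and Klk1b21 lacked these letters in this window, and bases past the annotated start were not searched. Their windows aligned to that of Klk1b22 over 160 and 200 bases, fewer than any other of the 10. Of 32851 RefSeq promoter windows, searched over the same 250 bases before the start, 12.1% held TTTAAA. The common form, TATAAA, was in none of the 10 and in 12.4% of all windows. AGAACA, an arm of the palindrome bound by the glucocorticoid receptor, was searched on both strands. It was in 0 of the 10, in 2 of the 4 other Klk1b genes measured and in 16.1% of all windows. The full palindrome, this arm and its reverse complement with any 3 bases between them, was in 0 of the 10 and 0.00913% of all windows. A match says only that the letters are there. The Klk1b22 letters are those of C57BL/6J, and the sequences of the other 8 strains were not used here.

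Klk1b22, the epidermal growth factor binding protein type A, was the gene with the widest strain pattern of the 10. Its gene runs to position 44116922 (gene ID 13646). On the log2 signal scale the 3 arrays of 129S1/SvlmJ read 6.75, 8.03 and 7.23, a mean of 7.33 ± 0.64 (SD, n = 3). Those of C3H/HeJ read 7.15, 7.07 and 8.09, a mean of 7.44 ± 0.57 (SD, n = 3). The 21 arrays of the other strains read from 2.91 to 3.73, with a median of 3.36. All 6 arrays of 129S1/SvlmJ and C3H/HeJ were therefore above all 21 others, and the gap between the lowest of the 6 and the highest of the 21 was 3.03.

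Among the other 7 strains the Klk1b22 means were 3.58 ± 0.24 in BALB/cJ, 3.44 ± 0.14 in A/J, 3.39 ± 0.17 in KK/HlJ, 3.33 ± 0.07 in C57L/J, 3.29 ± 0.21 in DBA/2J, 3.24 ± 0.30 in MRL/MpJ and 3.21 ± 0.16 in C57BL/6J (SD, n = 3 each). Each neighbouring pair in this order differed by no more than the larger of its SDs. The high strains did not separate either, C3H/HeJ being 0.10 above 129S1/SvlmJ with arrays that overlapped. The only wide step in the order was that from C3H/HeJ and 129S1/SvlmJ down to the rest.

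**Figure D1:**
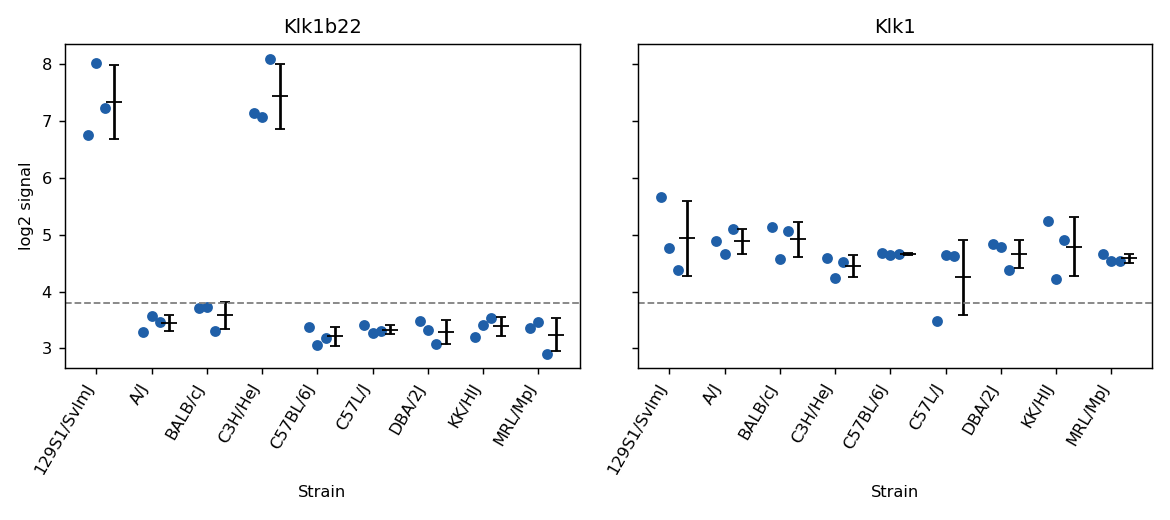
Log2 signal of Klk1b22 (left) and Klk1 (right) on each of the 27 arrays by strain: points are arrays, black marks the strain mean ± SD (n = 3), and the dashed line at 3.81 is the highest strain mean of the 4 Y-linked genes used as background. For Klk1b22 the 6 arrays of 129S1/SvlmJ and C3H/HeJ lie at 6.75 and above and the other 21 at 3.73 and below, while for Klk1 the strains overlap.

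The level in the 7 low strains was in the range of genes that cannot be expressed in females. The Y-linked genes Ddx3y, Eif2s3y, Kdm5d and Uty had strain means up to 3.81, the highest being that of Ddx3y in KK/HlJ, and Sry read higher, from 4.78 to 5.25, so the reading of an absent RNA depends on its probes. Against the mean of the other 7 strains, 3.35 ± 0.13 (SD over the 7 strain means), Klk1b22 was 3.98 higher in 129S1/SvlmJ and 4.08 higher in C3H/HeJ, 15.8-fold and 16.9-fold as measured. With the low strains set to the highest of the 4 Y-linked means, 3.81, these become 11.5-fold and 12.4-fold. These are not lower bounds, since a background as high as that of Sry would make them smaller. In whole lung, fewer cells of a type and less RNA per cell cannot be told apart. A strain difference in the letters under the probes can also change a reading, and was not tested here. C57BL/6J, whose sequence the RefSeq assembly carries, had the lowest Klk1b22 mean, 3.21.

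The F test of limma over all 20768 named rows, at an adjusted p under 0.05, called 29.0% of genes as differing among the strains. Of the 10 kallikrein genes 3 were called, Klk1b22, Klk1b1 and Klk1b4. Klk1b4 was not called after quantile normalization or without MRL/MpJ replicate 1, and without MRL/MpJ replicate 2 Klk1b26 was called as well. In the 36 pairs of strains, with a difference of at least 1 also asked for, 4.28% of all genes were called in at least 1 pair. Klk1b22 was called in 14 pairs and each of the other 9 in 0. With the 25% of genes of lowest mean over all arrays left out, 1 of the 10, Klk1, stayed in the test and both counts were 0, since Klk1b22, dim in 7 strains, was removed too. Since the genes were chosen on these levels, nothing is read from these counts.

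Some genes outside the cluster showed the same split of arrays. All 6 arrays of 129S1/SvlmJ and C3H/HeJ lay above all 21 others for 4 genes, 0.0193% of those tested, and by at least 1 log2 unit for Klk1b22 only, 0.00482%. The others were Il18, an inflammatory cytokine on chromosome 9, with 7.26 to 7.83 against 6.35 to 7.11, the predicted gene Gm11942 on chromosome 4, with 8.06 to 8.52 against 7.92 and below, and Gas2, a growth-arrest gene on another stretch of chromosome 7, with 5.74 to 5.95 against 5.17 to 5.71. Their gaps between the groups, 0.15, 0.14 and 0.03, were small beside that of Klk1b22. Taken as the mean of the pair of strains less the mean of the other 7, the Klk1b22 difference was 4.03 and no other named gene reached it.

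The remaining 9 genes varied far less than Klk1b22. Their strain means ran from 2.73 to 4.93, and the range between the lowest and highest strain of a gene was 0.30 to 0.68, with a median of 0.46 against 0.34 over all genes tested. In 7 of the 9 the SD between strain means was below the SD between mice of a strain, and Klk1b1 and Klk1b4 were the exceptions. A mean over the mice of a strain varies less than single mice do, so this does not show that the strains are alike. Their differences between the pair of strains high in Klk1b22 and the other 7 ran from -0.16 in Klk1b21 to 0.22 in Klk1b27, with a median of 0.04 and 7 of 9 above 0. Over all genes that difference had a median of 0.01, and the central 95% of genes lay between -0.26 and 0.27, which holds all 9.

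**Figure D2:**
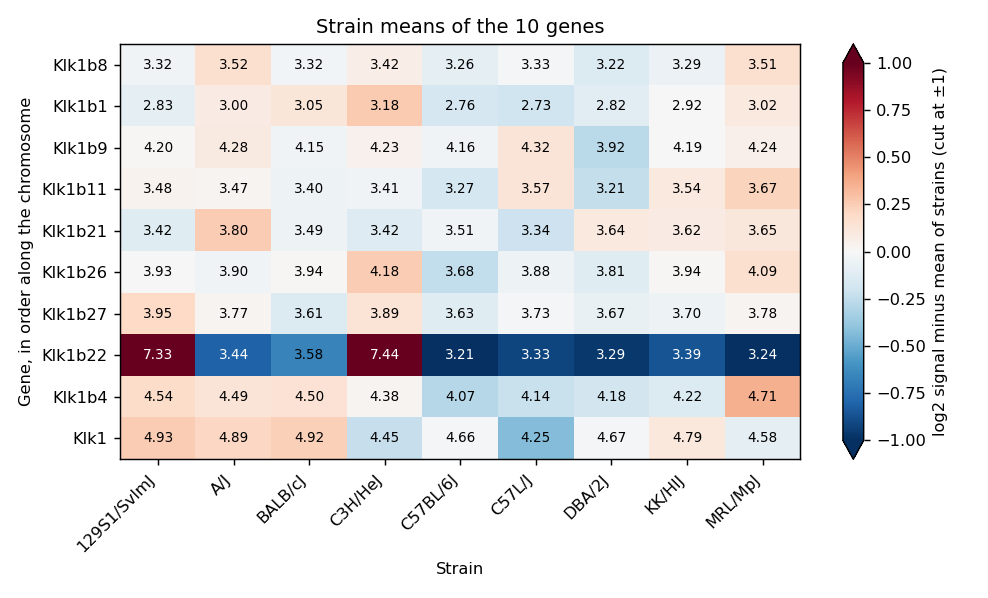
Strain means (log2 signal, printed in each cell, n = 3 arrays) of the 10 genes in order of their start along chromosome 7; the colour is the strain mean less that gene's mean over the 9 strains, cut at ±1. Klk1b22 stands out with 7.44 in C3H/HeJ and 7.33 in 129S1/SvlmJ, and no other gene departs from its mean by as much as 1.

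Klk1, the kinin-releasing tissue kallikrein at the distal end of the cluster (44225360 to 44229622, gene ID 16612), had its highest mean in 129S1/SvlmJ, where the arrays read 5.65, 4.77 and 4.37. BALB/cJ followed with 5.14, 4.56 and 5.06, and A/J with 4.89, 4.67 and 5.11. The lowest mean was that of C57L/J, with 3.48, 4.64 and 4.63. Its arrays in the highest and lowest strain thus overlapped, and the low mean of C57L/J came from its replicate 1. The means of 129S1/SvlmJ, 4.93 ± 0.66, and of C57L/J, 4.25 ± 0.66 (SD, n = 3 each), were the ends of the widest range among the 9, 0.68, which ran from 0.48 to 0.96 when single arrays were left out. C3H/HeJ, which shared the high Klk1b22 of 129S1/SvlmJ, was the next lowest for Klk1 with a mean of 4.45 ± 0.19 (SD, n = 3).

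The other genes tied to epidermal growth factor are Klk1b9, the binding protein type C, and Klk1b26, which also processes prorenin. Klk1b9 ran from 3.92 ± 0.02 in DBA/2J, with arrays at 3.91, 3.92 and 3.94, to 4.32 ± 0.17 in C57L/J (SD, n = 3 each). The DBA/2J arrays were low together, although 1 C3H/HeJ array read 3.91 as well. Klk1b26 ran from 3.68 ± 0.11 in C57BL/6J, with arrays at 3.68, 3.79 and 3.58, to 4.18 ± 0.12 in C3H/HeJ, with arrays at 4.21, 4.28 and 4.04 (SD, n = 3 each). Those end strains did not overlap. In 129S1/SvlmJ, where Klk1b22 was also high, Klk1b26 was at 3.93 ± 0.20 (SD, n = 3), inside the range of the other strains.

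Klk1b4 encodes the alpha subunit of the nerve growth factor complex, a member of the family that has lost protease activity. It was highest in MRL/MpJ, with arrays at 4.85, 4.51 and 4.78, and lowest in C57BL/6J, with arrays at 4.08, 4.03 and 4.11. The ends of its range, 4.71 ± 0.18 and 4.07 ± 0.04 (SD, n = 3 each), did not overlap. Between them stood 129S1/SvlmJ at 4.54, BALB/cJ at 4.50, A/J at 4.49, C3H/HeJ at 4.38, KK/HlJ at 4.22, DBA/2J at 4.18 and C57L/J at 4.14, each step being under 0.2 and within the SD of at least 1 of the neighbours. The row for Klk1b4 carried no symbol in the platform annotation and was named through its gene ID in RefSeq, 18048.

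Klk1b27 and Klk1b21 have been described in the Leydig cells of the testis. Klk1b27 was the only other one of the 10 whose highest means were in the same pair of strains, 3.95 ± 0.30 in 129S1/SvlmJ and 3.89 ± 0.16 in C3H/HeJ (SD, n = 3 each). Its arrays ran from 3.63 to 4.23 in 129S1/SvlmJ and read 4.03, 3.93 and 3.71 in C3H/HeJ, and 4 of these 6 were above all 21 others, which read 3.47 to 3.89. The groups overlapped, and the difference of 0.22 was small beside that of Klk1b22. Klk1b21 had the lowest difference, and its means went from 3.80 in A/J down to 3.34 in C57L/J, with 129S1/SvlmJ and C3H/HeJ both at 3.42. Its 27 arrays spread from 3.01 to 4.08, and its within-strain SD of 0.31 was above its between-strain SD of 0.15.

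Klk1b1, the proximal neighbour of Klk1b9, ran from 2.73 ± 0.07 in C57L/J, with arrays at 2.80, 2.67 and 2.71, to 3.18 ± 0.16 in C3H/HeJ, with arrays at 3.36, 3.10 and 3.08 (SD, n = 3 each). These did not overlap, but 129S1/SvlmJ, at 2.83, stood with the low strains. Klk1b8 spanned only 0.30, from 3.22 in DBA/2J to 3.52 in A/J. Klk1b11 ran from 3.21 in DBA/2J to 3.67 in MRL/MpJ, with a within-strain SD of 0.31 against a between-strain SD of 0.15. All 9 strain means of Klk1b1, Klk1b8, Klk1b11 and Klk1b21 lay below 3.81, the highest Y-linked mean, and those of Klk1, Klk1b4 and Klk1b9 all lay above it. Klk1b26 passed it in 8 strains and Klk1b27 in 2, and Klk1b22 alone passed the highest mean of Sry, in 2 strains. Probes differ in how brightly they read, so this sorts the readings and does not rank the genes by RNA.

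Along the measured stretch of chromosome the wide difference was at Klk1b22 only. The 23 other genes measured, 9 of the 10, the 4 further Klk1b genes between them and 5 on either side, had differences between 129S1/SvlmJ with C3H/HeJ and the other 7 strains from -0.16 to 0.33. Klk1b16, whose RefSeq span begins 9.58 kb beyond that of Klk1b22, had strain means from 2.71 to 2.84. Klk1b24 ran from 3.35 in C57BL/6J to 3.84 in C3H/HeJ, Klk1b3, the gamma subunit of the nerve growth factor complex, from 3.16 to 3.38, and Klk1b5 from 4.33 to 4.50. None of these 4 was called in the F test. The largest value among the 23 was the 0.33 of the pseudogene Klk1b7-ps, with 3.34 in C3H/HeJ, 3.29 in 129S1/SvlmJ and 2.71 to 3.18 in the others. Copies of such high similarity can share probe matches, and the probes behind each row were not analysed here. Places along the chromosome are those of the RefSeq gene spans. For Klk1b21, whose span from 44004616 to 44106583 overlaps other genes of the cluster, and for Klk1b16, from 44122254 to 44141610, the promoter windows used above lie inside the span, ending at 44102291 and 44137289, so the start behind the window is not the start of the span.

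**Figure D3:**
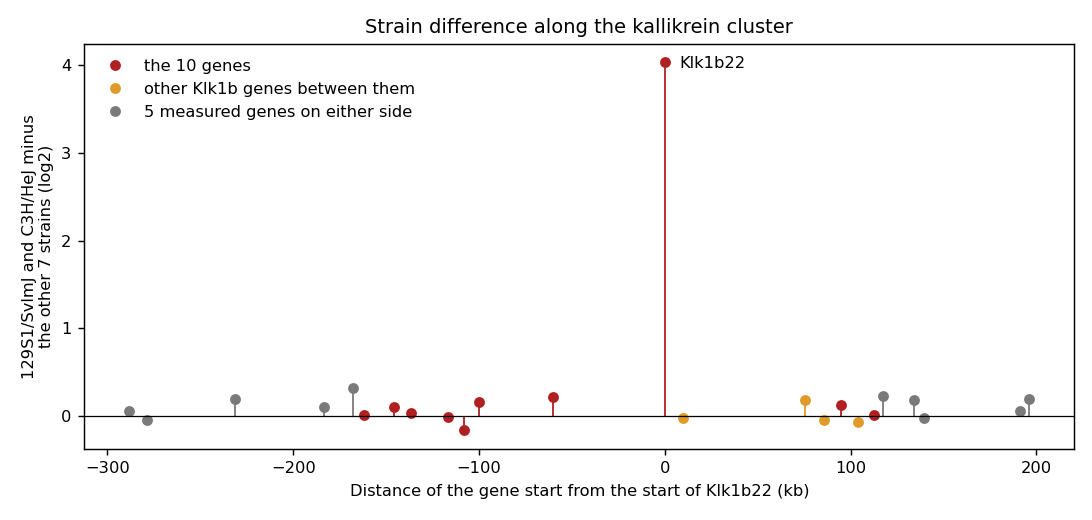
Difference in log2 signal between the mean of 129S1/SvlmJ and C3H/HeJ and the mean of the other 7 strains (y) for each measured gene by the distance of the start of its RefSeq span from that of Klk1b22 in kb (x): red, the 10 genes; orange, the 4 other Klk1b genes between them; grey, 5 measured genes on either side. Klk1b22 reaches 4.03 and the other 23 lie between -0.16 and 0.33.

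Beyond the cluster on the proximal side lie the Klk genes that are shared with other mammals. Of 12 measured 3 were called in the F test, Klk6, Klk10 and Klk13, and 0 in any pair at a difference of 1. Over all genes these shares were 29.0% and 4.28%. Klk13 had the widest range of the 12 and was lowest in a strain high in Klk1b22, from 6.08 ± 0.15 in 129S1/SvlmJ to 6.79 ± 0.08 in C57L/J (SD, n = 3 each). Klk4, an enamel protease, ran from 5.40 in DBA/2J to 5.88 in 129S1/SvlmJ. Klk15 ran from 4.19 in DBA/2J to 4.65 in MRL/MpJ, and Klk8, known from brain and skin, from 4.92 in DBA/2J to 5.36 in 129S1/SvlmJ. For 0 of the 12 were all 6 arrays above all 21.

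The genes whose strain means ran most like those of Klk1b22 were sought among 971 genes outside the family with a range of at least 1 log2 unit, by Pearson's r over the 9 strain means, which describes likeness only and shares the same arrays. Gm11942 came first (r = 0.88), with 8.32 in 129S1/SvlmJ, 8.13 in C3H/HeJ and 6.61 to 7.73 in the rest. Il18 followed (r = 0.87), with 7.59, 7.31 and 6.54 to 6.95. Slc22a28, an organic anion transporter gene, came next (r = 0.84), with 3.21, 3.77 and 2.60 to 3.03. After these, Pvalb (r = 0.80) and Tnnc2 (r = 0.77), are genes of fast skeletal muscle, and without C3H/HeJ replicate 2 their r was 0.23 and 0.47. That array read a median of 3.52 log2 above the other 8 strains over 8 skeletal muscle genes and 2.19 over 6 adipocyte genes. Its Klk1b22 value of 7.07 was the lowest of the 3 C3H/HeJ arrays, and the other C3H/HeJ arrays, at 0.17 and 0.02 for the muscle genes, read 7.15 and 8.09.

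For Klk1 the nearest patterns were those of Cyp1a1 (r = 0.83), a cytochrome of the aryl hydrocarbon response, Tmem176b (r = 0.78), Msln (r = 0.77), the mesothelial surface protein mesothelin, Stard10 (r = 0.77) and Slc7a10 (r = 0.76). All 5 had their lowest mean in C57L/J, as Klk1 did. Cyp1a1 was at 6.23 there and 8.09 in BALB/cJ, and Stard10, a lipid transfer protein gene, at 5.32 in C57L/J against 9.52 in KK/HlJ. The C57L/J mean of Klk1 behind these values includes its 1 low array, at 3.48. Its other arrays there read 4.64 and 4.63, above the C3H/HeJ mean of 4.45, so the shared lowest strain rests on that array. No r was computed without it.

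Of 15 genes of the kinin pathway, from kininogens to receptors, peptidases and inhibitors, 9 were called in the F test, beside the 29.0% of all genes, and 4 in at least 1 pair. This list and those below were chosen with earlier results of these data known. The p-values given for their genes therefore only describe these arrays. Serpina3c, a kallikrein-binding serpin, was highest in C57BL/6J at 7.82 ± 0.27 and lowest in MRL/MpJ at 6.01 ± 0.15 (SD, n = 3 each; limma F test, adjusted p = 2.42e-06). Bdkrb2, the constitutive bradykinin receptor, ran from 5.62 ± 0.21 in C57BL/6J to 7.26 ± 0.04 in C57L/J (limma F test, adjusted p = 4.87e-10). Xpnpep2, an aminopeptidase that degrades bradykinin, ran from 6.30 in A/J to 7.51 in MRL/MpJ, and Cpn1, the catalytic subunit of the kinin-inactivating carboxypeptidase N, from 5.31 in MRL/MpJ to 6.51 in A/J. The strains high in Klk1b22 were inside the range of the other 7 for each of these 4. The kininogens Kng1 and Kng2 did not pass the test (adjusted p = 0.446 and 0.870).

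Of 6 genes for growth factors, renin and their partners that kallikreins act on, 1 was called among strains, Agt, the angiotensinogen gene (limma F test, adjusted p = 0.00361). Agt was highest in the same pair of strains, 5.99 in 129S1/SvlmJ and 5.73 in C3H/HeJ, against 5.18 to 5.70 in the others, and the arrays overlapped. Egf reached 5.40 in KK/HlJ and was lowest in C57BL/6J at 4.96, and Ren1, the renin gene, ran from 4.70 to 5.10. Neither passed the test. Of 6 hormone receptor genes 4 were called, beside 29.0% of all genes. Pgr, the progesterone receptor, ran from 4.77 in A/J to 5.64 in MRL/MpJ, Esr1, the oestrogen receptor alpha, between 6.03 in KK/HlJ and 5.32 in C57BL/6J, and Thrb, a thyroid hormone receptor, from 6.35 in BALB/cJ to 6.77 in DBA/2J. For 0 genes of these 3 lists were all 6 arrays above all 21.

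Because Klk1b genes are known from salivary glands, markers of other tissues were set beside Klk1b22. The 8 lung markers, surfactant genes among them, had strain means from 7.24 to 13.31, as the tissue label asks. Of 9 measured salivary gland markers 1 was called among strains, beside 29.0% of all genes. It was Bpifa2, a salivary secretory protein gene highest in C57BL/6J at 4.28. Of the 9 markers 5 passed the Y-linked background in at least 1 strain. The summed signal of the 9, on the log2 scale, was 7.57 to 8.58 on the 6 arrays high in Klk1b22 and 7.51 to 8.21 on the other 21, and in the median salivary gene those 6 differed from the other 8 strains by -0.12 to 0.08. Amy1, an amylase gene also expressed in liver, had the widest range, being highest in C3H/HeJ at 6.75 ± 1.04 (SD, n = 3) and lowest in BALB/cJ at 5.73. The secretory protein gene Dcpp1 was highest in C3H/HeJ at 4.91 and Dcpp2 at 2.85. Neither passed the test (limma F test, adjusted p = 0.532 and 0.172), and Dcpp2 lay below the highest Y-linked mean, 3.81, in every strain.

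The airway gland and mucus genes differed widely among strains, 6 of 8 being called in the F test, beside 29.0% of all genes. Their summed log2 signal was 9.28 to 10.97 on the 6 arrays high in Klk1b22 and 10.04 and above on the other 21, and these ranges overlapped. Bpifa1, an antimicrobial protein of the airway lining, was lowest in 129S1/SvlmJ at 6.84 ± 0.49 and at 10.13 in C3H/HeJ, against 8.60 to 10.85 in the others. Ltf, lactoferrin, read 6.37 in 129S1/SvlmJ, 7.24 in C3H/HeJ and 7.23 to 8.92 in the others, Bpifb1 read 8.55, 8.39 and 8.08 to 10.46, and Muc5b, a gel-forming mucin, 7.34, 7.42 and 6.88 to 8.68. Of 7 pancreas acinar genes 1 was called, Cpa1, from 4.30 in C57BL/6J to 5.14 in C57L/J, and their summed log2 signal was 7.66 to 7.91 against 7.43 to 7.85. Of the 8 lung markers 3 were called, of 8 skeletal muscle genes 0 and of 6 adipocyte genes 1. The muscle sum was 8.71 to 13.04 on the 6 arrays against 8.52 to 9.22, and the adipocyte sum 9.40 to 11.78 against 8.48 to 11.38. The part of these tissues in the Klk1b22 signal was not tested. The sample numbers go strain by strain except in MRL/MpJ, and those of 129S1/SvlmJ and C3H/HeJ adjoin. They do not state the order in which the arrays were run. Any effect of such an order on Klk1b22 was not tested.

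The study grouped strains by adenoma severity and frequency, and the kallikrein genes were compared between these classes with the strain as the unit, by limma on the 9 strain means, adjusted over all 20768 genes. The class comparisons use the same strain means on which the genes were chosen, so the counts and differences of the 10 are a description, with no p-value for a gene. Both strains high in Klk1b22 fall in the severity-increased and the frequency-decreased class. For severity, 7 strains increased against 2 decreased, 0 of the 10 passed an adjusted p under 0.05, beside 0.00963% of all genes. For frequency, 3 against 6, 0 of the 10 passed, beside 0.00% of all genes. For both increased against both decreased, 3 strains against 2 with the other 4 sharing the estimate of spread, 0 of the 10 passed, beside 0.00482% of all genes. At an unadjusted p under 0.05 the counts were 0 of the 10 for severity (7.02% of all genes), 2 for frequency (7.65%) and 1 for both (8.61%).

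Klk1b22 averaged 4.52 in the severity-increased strains and 3.32 in the decreased ones, a difference of 1.20 ± 1.22 (SE from limma). The 2 high strains carried that difference, since the other 5 increased strains read 3.21 to 3.58 beside 3.24 and 3.39. For frequency the means were 3.31 and 4.72, a difference of -1.40 ± 1.04 (SE), again from the same pair. Between both increased and both decreased, where neither high strain takes part, the means were 3.31 and 3.32.

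Klk1b11 was lower by 0.29 ± 0.10 (SE) in the strains with both increased than in those with both decreased, at 3.32 against 3.60, and by frequency it differed by -0.20 ± 0.08 (SE). The first of these values was -0.12 without KK/HlJ replicate 2 and -0.44 without KK/HlJ replicate 1. All strain means of Klk1b11 lay below the highest Y-linked mean, 3.81, and its within-strain SD was 0.31. Klk1b26 averaged 3.80 in the frequency-increased and 3.99 in the frequency-decreased strains, a difference of -0.20 ± 0.08 (SE). The other 7 genes differed by -0.14 to 0.01 for severity, by -0.17 to 0.16 for frequency and by -0.22 to 0.05 for both. In the lists of other Klk1b genes, other Klk genes, kinin pathway, growth factor and renin substrates, hormone receptors and tissue markers 0 genes were called in any class comparison.

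**Figure D4:**
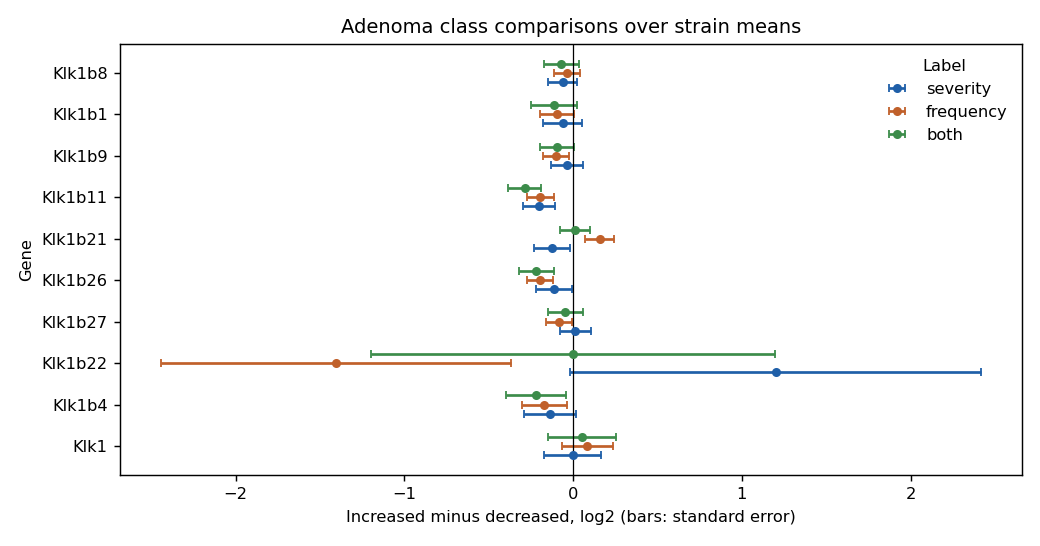
Difference in log2 signal between strains classed increased and decreased (x, bars are standard errors from limma on 9 strain means) for each of the 10 genes (y): blue, severity; orange, frequency; green, both. Klk1b22 has the widest bars, with 1.20 ± 1.22 for severity and -1.40 ± 1.04 for frequency, and the other 9 genes lie within 0.3 of 0.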

How the data were processed

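Right lung RNA of 27 mice, 3 females of each of 9 strains, was measured on Mouse Gene 1.0 ST arrays. The authors deposited log2 signal values, made with the affy package per the submitters' processing notes, with version and normalization not given in the sources used here. Values ran from 1.78 to 13.35 and array medians from 6.24 to 6.37, and they were used as deposited. Their number, 3 arrays per strain, limits the precision.

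Of 21225 rows, 20239 were named by the platform table, 529 by gene ID in RefSeq and 457 were left unnamed, so 20768 were tested. R 4.3.3 with limma 3.58.1 (lmFit, eBayes) took the 27 arrays, a mean for each strain, for an F test and 36 pairs, and the 9 strain means for adenoma classes, with Benjamini-Hochberg adjustment. The kallikrein genes and all gene lists were chosen with earlier results of these data known. Named genes were every kallikrein gene of the 10, the other Klk1b genes, up to 4 genes per further list with the widest range of strain means (some of these are not reported here), the 5 most alike in pattern, and 5 neighbours per side. Promoter letters are RefSeq's for GRCm38.p6, aligned with Biopython 1.88. Tested on simulated data, the F test recovered 96.0% of 200 genes shifted by 1 in C3H/HeJ and the severity test 92.0% of 200. These genes were drawn at random from all genes. The severity share does not hold for a gene as spread among strains as Klk1b22, whose SE there was 1.22. The simulated shift of 1 was wider than any strain range of the other 9 genes, at most 0.68. Neither share therefore holds for differences of the size seen in them. Alternatives were scaling, filters, priors, blocks, and leaving out arrays or strains.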

Additional observations from a re-analysis of the deposited data

Results flagged for a closer look

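Klk1b9 in DBA/2J stood apart from the other strains of its class. Among the 7 strains with increased severity its lowest strain mean, 3.92 in DBA/2J, lay below the next lowest, 4.15, by 0.577 of the whole range of the 7. Of 20 groups of strain means looked at in this way 1 stood out so far, and chance gives about 1 in 20. The cause was not tested.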

How the results depend on the processing

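The count of 3 kallikrein genes called among strains and the 14 pair calls of Klk1b22 stayed within 1.5 times of these values under every alternative run but the filter on dim genes. Leaving out single arrays gave 2 to 4 genes called and 14 to 14 pair calls. Quantile normalization gave 2 genes, without Klk1b4, and so did the rows named by the platform table, an alternative chosen after seeing the data, which do not include Klk1b4. With the 25% of genes of lowest mean left out, 1 of the 10 kallikrein genes remained in the test, Klk1b22 was among those removed, and both counts were 0. The replicate numbers did not pair the mice (median correlation of same-numbered deviations -0.00084 over 108 pairs), and the fit with a replicate block gave 3 genes and 14 pair calls. No class comparison called any of the 10 under any alternative run. For both increased against both decreased, the Klk1b22 difference of near 0 changed sign to 0.0742 under quantile normalization, 0.0390 under median centring, and 0.0700, 0.0502 and 0.0108 without KK/HlJ, C57BL/6J or DBA/2J, and ran from -0.0861 to 0.0544 without single arrays. Over all 10 genes 62 of 1260 class values changed sign, and 0 were called. The dim signal of 9 of the 10 genes limits what strain differences in them could be seen.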
